A study of Mus musculus with 18 samples.

Results

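The step from embryoid bodies at day 7 to attached outgrowths at day 21 was examined in mouse embryonic stem cells that lack functional Pax7. All groups came from cells with an F1 (C57Bl6N x 129Sv) background. The members were the 3 Pax7-/- arrays of day 7 and the 3 Pax7-/- arrays of day 21, chosen by the sample titles, and they made up 6 of the 18 arrays. The same step in Pax7+/+ cells, with 3 arrays of day 7 and 3 of day 21, served as reference. Undifferentiated cells of day 0 were grown with LIF, the cytokine that holds mouse stem cells undifferentiated. Both later stages were cultured without LIF and with RA and ITS. The labels call the arrays biological replicates and do not give the number of clones or cultures behind them, so the spread between arrays may be partly technical. Total RNA was hybridised to Affymetrix arrays, and each value below is a log2 intensity of a probe set, with 1 probe set per gene.

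An embryoid body is a ball of stem cells that forms an outer layer of primitive endoderm around epiblast-like cells. When such bodies attach and spread, they give rise to derivatives of all germ layers, among them neural, cardiac and mesenchymal cells. Pax7 encodes a paired-box transcription factor known for its role in muscle satellite cells and in the dorsal neural tube and neural crest. In these whole-culture RNA samples, fewer cells of a type and less RNA per cell cannot be told apart.

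Array values came in 2 sets that differed in spread. On 10 narrow arrays the SD over all probe sets lay between 1.37 and 1.45, and on 8 wide arrays between 1.79 and 1.85. Of the Pax7-/- arrays, day 7 replicates 1 and 3 and day 21 replicate 1 were narrow, and day 7 replicate 2 and day 21 replicates 2 and 3 were wide. Of the Pax7+/+ arrays of day 7, replicate 1 was narrow and replicates 2 and 3 were wide. At day 21 replicates 1 and 3 were narrow and replicate 2 was wide in Pax7+/+ cells. Arrays of 1 set correlated at 0.914 or more and arrays of different sets at 0.789 or less, so every difference was fitted with the array set as a covariate and read within each set as well. With the set left out of the fit, Gkn2, Gkn1 and Sox1 were the 3 genes called. The mean of 26 naive pluripotency genes in Pax7-/- cells was 7.35 and 7.41 on the narrow and 8.59 on the wide arrays of day 0, and 6.11, 6.34 and 7.28 in the same order of sets at day 7. It was 5.79 on the narrow and 6.64 and 6.60 on the wide arrays of day 21. The probe set of Pax7 read 6.32 and 5.86 (narrow) and 4.99 (wide) at day 7 and 6.12 (narrow), 5.36 and 5.53 (wide) at day 21. Whether this probe set lies in the deleted part is not stated, so it checks no label.

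Outgrowth without Pax7 changed 185 of 22180 genes, or 0.834% (limma, Benjamini-Hochberg adjusted p under 0.05). Of these 101 were higher at day 21 (0.455%) and 84 were lower (0.379%), and 63 changed at least 2-fold, 45 upwards (0.203%) and 18 downwards (0.0812%). The median difference over all genes was 0.01, and 2685 of the 22180 genes had an unadjusted p under 0.05 in limma. The called differences ran from 0.44 to 4.42 in size on the log2 scale, with a median of 0.84. All 185 had day 21 and day 7 values that did not overlap within either array set, as did 31.8% of all genes. The count moved with single arrays: it was 46 without day 21 replicate 3, 102 without day 21 replicate 2 and 548 without day 21 replicate 1. Without day 7 replicates 1, 2 and 3 it was 71, 70 and 84, and without Pax7+/+ day 21 replicate 2, which enters through the shared spread and the array-set term, it was 313. In Pax7+/+ cells the same step changed 1297 genes (5.85%), 304 higher (1.37%) and 993 lower (4.48%), and 198 of the latter at least 2-fold (0.893%). That count was 673 and 679 without Pax7+/+ day 7 replicates 2 and 3. Of the 185 genes, 66 were also called there, 58 of them in the same direction.

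**Figure D1:**
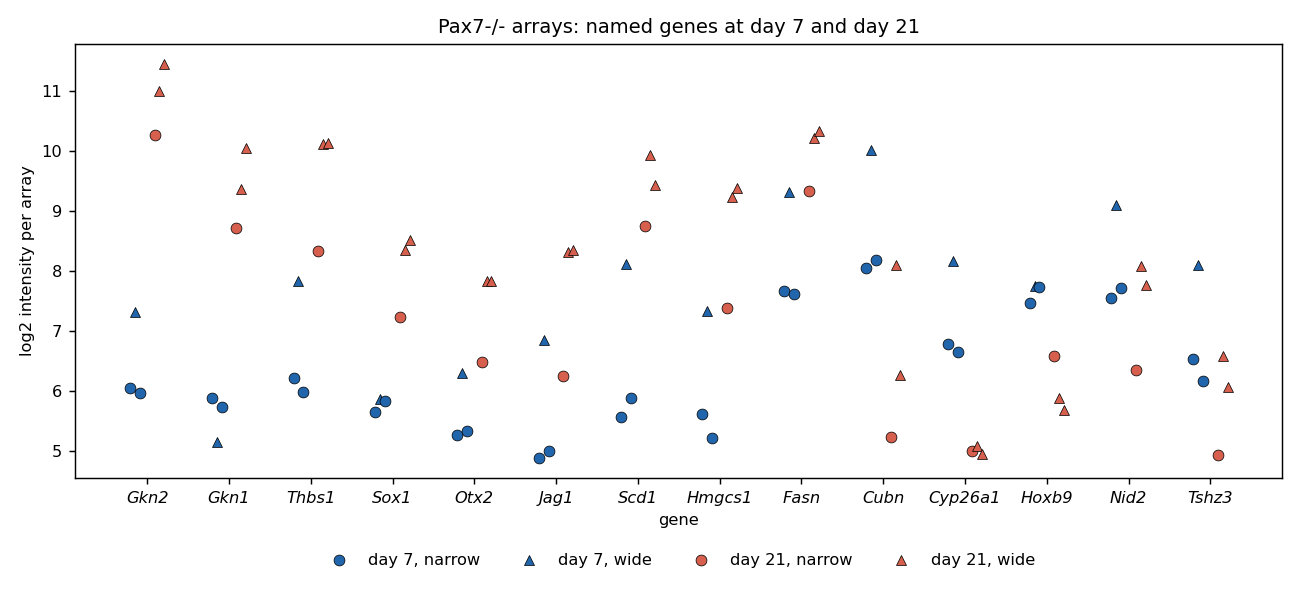
Log2 intensity of 14 named genes on each of the 6 Pax7-/- arrays, with circles for narrow and triangles for wide arrays, blue for day 7 and red for day 21. Within each set every day 21 point lies above the day 7 points for the genes from Gkn2 to Fasn and below them for Cubn to Tshz3.

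Several genes of lipid synthesis rose. Cells build sterols from acetyl-CoA through the mevalonate pathway and fatty acids through fatty acid synthase and a set of elongases and desaturases, and the SREBP transcription factors are known to switch on both sets of enzymes when membrane sterol is scarce. Of 12 measured genes of fatty acid and sterol synthesis, 9 rose and none fell, and the remaining 3 (Acaca, Elovl6 and Cyp51) did not pass. Their median difference was 1.07, and 1.18 on the narrow and 1.01 on the wide arrays alone. The number that rose stayed between 7 and 9 with each of the 6 Pax7-/- arrays left out in turn. In Pax7+/+ cells 1 of the 12 rose and 1 fell, with a median of 0.10.

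Hmgcs1, which makes the precursor of mevalonate, read 5.61 and 5.22 on the narrow and 7.33 on the wide arrays of day 7. At day 21 it read 7.38 on the narrow and 9.23 and 9.38 on the wide arrays, so that the days were separated in both sets. The rise was 1.89 ± 0.19 (SE, n = 3 and 3; 3.71-fold; adjusted p = 0.00021), and 1.96 and 1.97 within the narrow and wide sets. Scd1, the desaturase that makes monounsaturated fatty acids, read 5.57, 5.88 and 8.12 at day 7 and 8.75, 9.92 and 9.44 at day 21, narrow arrays first. Its rise was 2.19 ± 0.28 (4.55-fold; adjusted p = 0.00123), 3.02 in the narrow and 1.56 in the wide set. Fasn, fatty acid synthase, went from 7.66, 7.62 and 9.31 to 9.32, 10.21 and 10.33, a rise of 1.26 ± 0.17 (adjusted p = 0.00149). These genes kept their calls with any single Pax7-/- array left out.

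A wider view came from lists of 16 sterol synthesis enzymes, 17 fatty acid synthesis enzymes and 12 sterol regulators, written after the values were seen. Among the sterol enzymes 6 rose and none fell, with a median of 0.80, and the number ran from 3 to 10 with single Pax7-/- arrays left out. Besides Hmgcs1 these were Msmo1 (1.33 ± 0.23), a sterol demethylating oxidase, Fdps (1.30 ± 0.18), which makes farnesyl diphosphate, and Sqle (1.13 ± 0.16), squalene epoxidase. Fdft1, squalene synthase (0.79 ± 0.14), and Pmvk, a kinase of mevalonate phosphate (0.62 ± 0.11), completed the 6. Of the fatty acid enzymes 7 rose: Scd1, Fads2 (1.65 ± 0.20), Fasn, Acly (0.98 ± 0.13), Fads1 (0.97 ± 0.20), Idh1 (0.87 ± 0.16) and Acsl4 (0.68 ± 0.11). Fads1 and Fads2 desaturate polyunsaturated fatty acids, Acly supplies cytosolic acetyl-CoA, Idh1 supplies NADPH and Acsl4 activates arachidonic acid. Of the regulators 3 rose. They were Insig1, which holds the SREBP complex in the endoplasmic reticulum (1.15 ± 0.19), and the SREBP genes Srebf2 (1.08 ± 0.13) and Srebf1 (0.86 ± 0.15). Fdps, Sqle, Fads2, Acly, Acsl4, Insig1 and Srebf2 were called with any single Pax7-/- array left out. Fads1 lost its call without any of the 6 (adjusted p up to 0.192). Msmo1 lost it without day 7 replicate 2 or day 21 replicate 2 or 3 (up to 0.106), Idh1 without those or day 7 replicate 1 (up to 0.149) and Fdft1 without day 7 replicate 1 or 2 or day 21 replicate 2 (up to 0.0892). Pmvk and Srebf1 lost it without day 7 replicate 1 or 2 or day 21 replicate 3 (up to 0.0726 and 0.0642).

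The step itself differed between genotypes for 7 of the 12 lipid genes, all with the larger rise in Pax7-/- cells (change of the step, adjusted p under 0.05; 0.911% of all genes were called in this contrast and 0.721% in this direction). With each of the 12 arrays of both steps left out in turn, between 1 and 7 genes of fatty acid and sterol synthesis were called. Fasn changed by 1.57 ± 0.24 more than in Pax7+/+ cells, where its difference was -0.31 (adjusted p of the change = 0.00741). For Scd1 the change was 2.15 ± 0.40, with 0.04 in Pax7+/+ cells, and for Hmgcs1 it was 1.32 ± 0.28, with 0.57 in Pax7+/+ cells. Fasn alone of these 3 kept the call of the change with each of the 12 arrays of both steps left out. The change of Scd1 lost it without Pax7-/- day 7 replicate 1 or Pax7+/+ day 7 replicate 2 (adjusted p up to 0.0602), and that of Hmgcs1 without any of 9 of the 12 (up to 0.133).

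**Figure D2:**
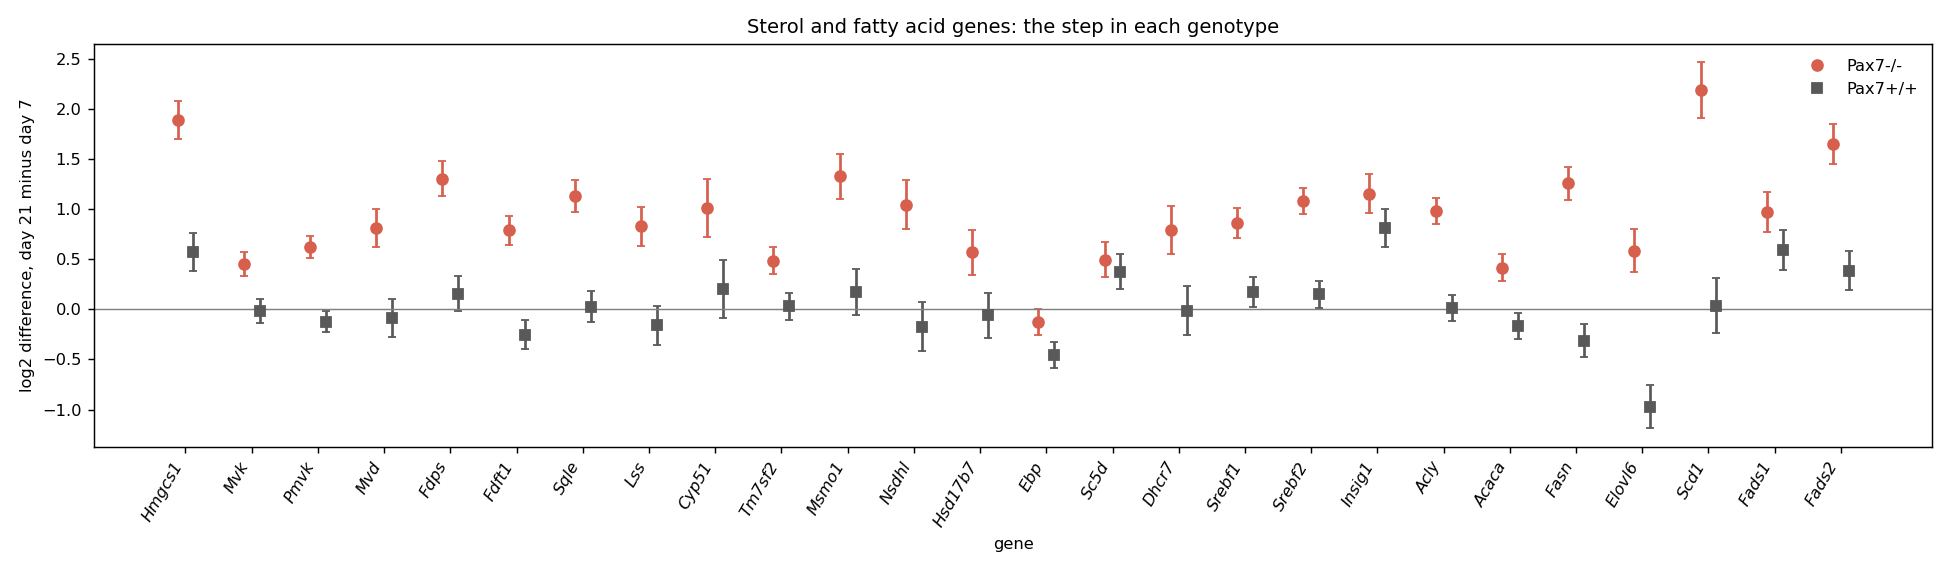
Log2 difference between day 21 and day 7, with its SE, for 26 genes of sterol and fatty acid synthesis in Pax7-/- (circles) and Pax7+/+ cells (squares), 3 arrays per group. The genes were picked for the plot after the values were seen, and 25 of the 26 Pax7-/- differences lie above zero (Ebp does not); the 3 fatty acid enzymes and 5 sterol regulators with differences below zero are not drawn.

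The promoters of Hmgcs1, Msmo1 and Fasn are shown because these genes stand for the sterol branch, its later oxidative steps and the fatty acid branch. They were chosen after the values were seen. The sequences are from RefSeq on GRCm38.p6, 250 bases before to 50 after the start of the gene, in the direction of transcription, and capitals mark CCAAT and TCACNCCAC on either strand, with ATTGG as the reverse of CCAAT.
Hmgcs1, chr13:119690101-119690400, plus strand: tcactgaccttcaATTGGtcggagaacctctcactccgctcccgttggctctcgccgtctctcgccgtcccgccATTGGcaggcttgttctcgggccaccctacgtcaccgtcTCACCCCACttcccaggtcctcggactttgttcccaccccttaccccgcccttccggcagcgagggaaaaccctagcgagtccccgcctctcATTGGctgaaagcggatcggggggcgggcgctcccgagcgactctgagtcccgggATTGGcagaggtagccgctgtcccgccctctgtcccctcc
Msmo1, chr8:64733529-64733828, minus strand: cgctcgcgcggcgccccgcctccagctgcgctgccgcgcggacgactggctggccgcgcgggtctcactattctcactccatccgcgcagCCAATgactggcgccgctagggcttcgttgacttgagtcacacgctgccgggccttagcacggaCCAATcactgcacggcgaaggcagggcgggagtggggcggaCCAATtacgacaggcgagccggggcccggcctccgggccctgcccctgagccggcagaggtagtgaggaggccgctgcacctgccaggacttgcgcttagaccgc
Fasn, chr11:120824498-120824797, minus strand: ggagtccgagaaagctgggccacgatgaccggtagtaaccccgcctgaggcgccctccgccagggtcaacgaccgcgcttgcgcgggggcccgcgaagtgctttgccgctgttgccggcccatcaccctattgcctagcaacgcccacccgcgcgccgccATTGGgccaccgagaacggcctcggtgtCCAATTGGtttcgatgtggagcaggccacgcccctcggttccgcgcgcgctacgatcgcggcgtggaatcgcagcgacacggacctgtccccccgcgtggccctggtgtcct
The window of Hmgcs1 held 4 CCAAT boxes and 1 match to TCACNCCAC, a core form of the sterol response element, while those of Msmo1 and Fasn held 3 CCAAT boxes each, of which a pair on opposite strands overlaps in Fasn. CCAAT occurred in 14 of the 15 sterol enzyme genes with a promoter (93.3%) and in 11 of 17 fatty acid enzyme genes (64.7%), against 41.1% of all 27025 genes and 37.4% of all 32851 promoters of this length. TCACNCCAC occurred in 1 of the 15 sterol enzyme genes, 1 of the 17 fatty acid enzyme genes, 1.44% of all genes and 1.24% of all promoters. A match is a description of letters in this window.

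Part of the neural progenitor and anterior neural genes rose by day 21. The early neural plate is known to express Sox1 together with Sox2 and Sox3, and its anterior part is set apart by Otx, Six3, Fezf1 and Emx2 as the future forebrain. Of 19 neural progenitor genes, 8 rose and none fell (median 0.85). The median was 0.45 on the narrow and 1.11 on the wide arrays alone. Sox1, a SoxB1 factor of the neural plate, read 5.65, 5.83 and 5.87 on the day 7 arrays and 7.23 on the narrow and 8.36 and 8.51 on the wide day 21 arrays. The groups did not overlap across sets either, and the rise was 2.19 ± 0.26 (4.55-fold; adjusted p = 0.000788), called with any single Pax7-/- array left out. In Pax7+/+ cells its difference was 0.64, and the change of the step did not pass (1.54 ± 0.37; adjusted p = 0.0708).

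The other 7 progenitor genes that rose were Prtg, a surface receptor of the early neural tube (2.23 ± 0.48), the head homeobox genes Otx1 (1.77 ± 0.34) and Otx2 (1.497 ± 0.27), Emx2 of the dorsal telencephalon (1.23 ± 0.27), the Notch target Hes1 (1.01 ± 0.21), Pax6 (0.85 ± 0.18) and Six3 (0.70 ± 0.13). Prtg read 5.81, 5.91 and 7.88 at day 7 and 8.30, 9.52 and 9.87 at day 21. In a list of 23 forebrain transcription factors, written after the values were seen, the median was 0.27 on the narrow and 1.01 on the wide arrays, and 9 rose. They include Fezf1 (2.30 ± 0.50), Dmrt3 (1.53 ± 0.33), the hedgehog effector Gli3 (1.11 ± 0.17) and Foxb1 of the diencephalon (1.02 ± 0.21). Fezf1 read 5.999 and 5.77 (narrow) and 4.30 (wide) at day 7 and 6.58 (narrow), 7.68 and 7.97 (wide) at day 21, so its difference was 0.70 in the narrow and 3.53 in the wide set. None of 13 midbrain and hindbrain transcription factors was called in limma, with 6 at an unadjusted p under 0.05 and a median of 0.37. With single Pax7-/- arrays left out, between 0 and 4 of these 13 were called, with medians from 0.13 to 0.64. The count of progenitor genes that rose ran from 1 to 11 with single Pax7-/- arrays left out, and that of forebrain factors from 1 to 15, although the medians stayed between 0.77 and 1.14 and between 0.62 and 1.01. Gli3 was called in each of these fits, as Sox1 was. Prtg was called in none of them (adjusted p up to 0.156). Otx1, Fezf1, Dmrt3, Emx2, Hes1, Pax6 and Foxb1 were called only without day 21 replicate 1 (up to 0.238 for Fezf1), and Otx2 and Six3 in 2 of the 6 fits (up to 0.0698 and 0.14). In Pax7+/+ cells 2 of the 19 progenitor genes rose and 1 fell (median 0.40). Of the 23 forebrain factors 3 rose there and none fell (median 0.42). The change of the step was called for 1 gene of each list, upward.

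Among 18 tubulin and growth cone genes, also listed after the values were seen, 5 rose (between 2 and 5 with single Pax7-/- arrays left out). Tubb4a, a tubulin of neurons and oligodendrocytes, went from 5.23, 5.15 and 5.16 at day 7 to 6.31, 6.52 and 6.92 at day 21 (1.46 ± 0.20; adjusted p = 0.0024), with no overlap across sets. Dpysl5 (1.06 ± 0.16) and Dpysl2 (1.04 ± 0.19) encode collapsin response mediators of growing axons, and Tuba1a (1.05 ± 0.22) and Dbn1 (0.78 ± 0.13) encode a tubulin and an actin-binding protein. Tubb4a and Dbn1 were called with any single Pax7-/- array left out. Dpysl5 was lost without day 7 replicate 2 (adjusted p = 0.0584), Dpysl2 without day 7 replicate 1 or 2 or day 21 replicate 3 (up to 0.0766) and Tuba1a in 5 of the 6 fits (up to 0.159). None of 20 neuronal genes was called in limma (3 at an unadjusted p under 0.05, median 0.21). Tubb3, an early neuronal tubulin in that list, differed by 0.38 ± 0.16 (adjusted p = 0.351). Fzd3, a Wnt receptor of axon guidance, rose by 1.502 ± 0.31, and Cdh2, the cadherin of neural epithelium and mesenchyme, by 1.05 ± 0.19. Fzd3 was called only without day 21 replicate 1 (up to 0.15), and Cdh2 was lost without day 7 replicate 1 or day 21 replicate 3 (up to 0.0673).

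Of 16 Notch pathway genes 3 rose (between 1 and 4 with single Pax7-/- arrays left out): the ligand Jag1, the glycosyltransferase Lfng, which tunes the receptor, and the target Hes1. Jag1 read 4.89, 5.004 and 6.86 at day 7 and 6.25, 8.32 and 8.34 at day 21, a rise of 1.36 ± 0.17 (adjusted p = 0.00123) with 1.30 and 1.47 in the narrow and wide sets. It was called with any single Pax7-/- array left out. Lfng rose by 1.32 ± 0.25, with 0.58 in the narrow and 1.82 in the wide set, and was called without day 7 replicate 1 or day 21 replicate 1 but in no other such fit (adjusted p up to 0.134).

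**Figure D3:**
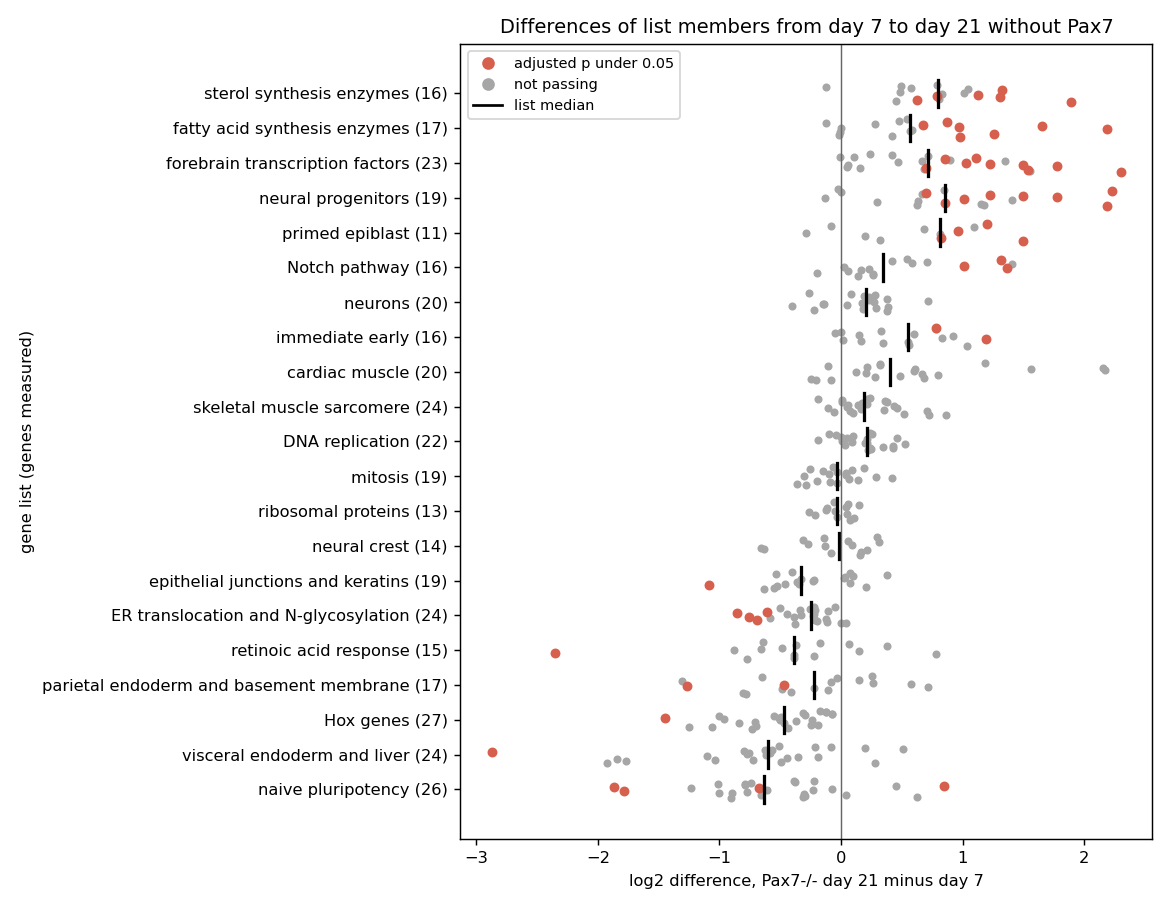
Log2 difference between Pax7-/- day 21 and day 7 for the members of 21 gene lists, each point 1 gene, red where the adjusted p was under 0.05, with a bar at the list's median. The medians of the lipid, forebrain, neural progenitor and primed epiblast lists lie to the right of zero and those of the Hox, visceral endoderm and naive pluripotency lists to the left; 4 of the lists shown (sterol synthesis enzymes, fatty acid synthesis enzymes, forebrain transcription factors, and endoplasmic reticulum translocation) were written after the values were seen.

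Pluripotency genes split. Naive mouse stem cells rely on Nanog, Klf factors and Esrrb, and cells of the primed epiblast switch to Otx2, Zic2 and Dnmt3b while keeping some pluripotency factors. Of 26 naive pluripotency genes 3 fell and 1 rose, with a median of -0.64, and between 0 and 5 fell with single Pax7-/- arrays left out. Tdgf1, the Nodal co-receptor Cripto, read 7.05, 7.25 and 9.05 at day 7 and 4.71 on the narrow and 7.58 and 7.12 on the wide arrays of day 21, and fell by 1.86 ± 0.31 on the log2 scale (3.64-fold; adjusted p = 0.00824). Dppa2 fell by 1.79 ± 0.34 and Fbxo15 by 0.67 ± 0.13. Lin28a, an RNA-binding protein that blocks let-7 maturation, rose from 6.61, 6.73 and 7.54 to 7.64, 8.16 and 8.49 (0.84 ± 0.13; adjusted p = 0.00704) and was called with any single Pax7-/- array left out. Tdgf1 lost its call without day 7 replicate 2 (adjusted p = 0.0726), Dppa2 without that array, day 7 replicate 3 or day 21 replicate 3 (up to 0.154), and Fbxo15 without any of these or day 21 replicate 2 (up to 0.149). In Pax7+/+ cells 13 of the 26 naive genes fell and 1 rose, with a median of -1.01. The change of the step was called upward for 5 of the 26 and downward for 1.

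Primed epiblast genes gave 4 rises among 11 and no fall (median 0.81). They were Otx2, the kinase gene Pim2 (1.20 ± 0.21), the de novo methyltransferase gene Dnmt3b (0.96 ± 0.20) and Zic2 (0.82 ± 0.17). Otx2 is also among the neural progenitor genes that rose, so the lists share this call. Dnmt3b read 6.01, 6.41 and 8.02 at day 7 and 7.02, 9.16 and 8.83 at day 21. Tet2, which oxidises methylcytosine, fell by 0.92 ± 0.17. With single Pax7-/- arrays left out, between 0 and 6 of the 11 primed genes were called. Pim2 was lost without day 7 replicate 1 or day 21 replicate 3 (adjusted p up to 0.0627), Tet2 without day 7 replicate 2 or 3 or day 21 replicate 3 (up to 0.149), and Dnmt3b and Zic2 in all fits but that without day 21 replicate 1 (up to 0.141 and 0.144).

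The Mir302 cluster, whose microRNAs are abundant in pluripotent cells, held the microRNA gene called in a list of 12 pluripotency microRNAs. Mature sequences from RefSeq are given for the members of the cluster found there, all on chromosome 3, with bases 2 to 8 (the seed, which pairs with targets) in capitals. The members other than Mir302c were added after the values were seen.
miR-302b-3p: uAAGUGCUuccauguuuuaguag
miR-302c-3p: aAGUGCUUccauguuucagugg
miR-302d-3p: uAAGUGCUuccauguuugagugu
miR-367-3p: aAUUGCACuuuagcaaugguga
The annotated miR-302b-3p and miR-302d-3p share a seed. That of miR-302c-3p is shifted by 1 base, since its annotated start lies 1 base further in, and that of miR-367-3p is different. Mir302c read 3.44, 3.67 and 3.29 at day 7 and 3.88 (narrow), 5.36 and 5.38 (wide) at day 21, and every day 7 value and the narrow day 21 value lay below the median of its own array (4.62 to 4.94). Its rise was 1.31 ± 0.28 (adjusted p = 0.035), 0.32 in the narrow and 2.08 in the wide set, and it was called in 1 of the 6 fits with a Pax7-/- array left out, that without day 21 replicate 1 (adjusted p up to 0.224). Mir302a differed by 0.96 (adjusted p = 0.0553), Mir302d by 0.62 (0.0811), Mir367 by 0.42 (0.114) and Mir302b by 0.26 (0.349). The probe sets read the transcript of the gene and do not separate the mature strand.

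Hox gene differences lay below zero, and the retinoic acid hydroxylase gene Cyp26a1 fell. Hox genes mark position along the trunk, are switched on by retinoic acid in stem cell cultures and are absent from the forebrain. All 27 measured Hox genes had differences below zero, as had 10590 of all 22180 genes. The Hox median was -0.47 (all genes 0.01), but 1 Hox gene fell by the test and 15 had an unadjusted p under 0.05. With single Pax7-/- arrays left out, between 0 and 5 were called and 25 to 27 stayed below zero. The mean of the 27 at day 21 was 4.99 on the narrow and 4.28 on both wide arrays. The medians of those arrays were 4.94 (narrow), 4.66 and 4.65 (wide), so many Hox readings there carry background. Hoxb9 read 7.47 and 7.74 (narrow) and 7.76 (wide) at day 7 and 6.58 (narrow), 5.88 and 5.69 (wide) at day 21, with no overlap between the days. It fell by 1.45 ± 0.24 on the log2 scale (2.73-fold; adjusted p = 0.00818). The median of the 27 was -0.18 on the narrow and -0.90 on the wide arrays, and all 27 stayed below zero under quantile normalisation, median centring and scaling to a common SD. In Pax7+/+ cells their median was -0.37 with 2 genes called lower, and none differed between genotypes in the step. Cyp26a1, the enzyme that clears retinoic acid and is itself a target of it, read 6.79, 6.65 and 8.17 at day 7 and 5.01, 5.10 and 4.95 at day 21. It fell by 2.35 ± 0.38 on the log2 scale (5.09-fold; adjusted p = 0.00818), and it was the called gene among 15 of the retinoic acid response (median -0.39). Hoxb9 and Cyp26a1 both lost their calls without day 7 replicate 2 or day 21 replicate 3 (adjusted p up to 0.0766 for each).

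**Figure D4:**
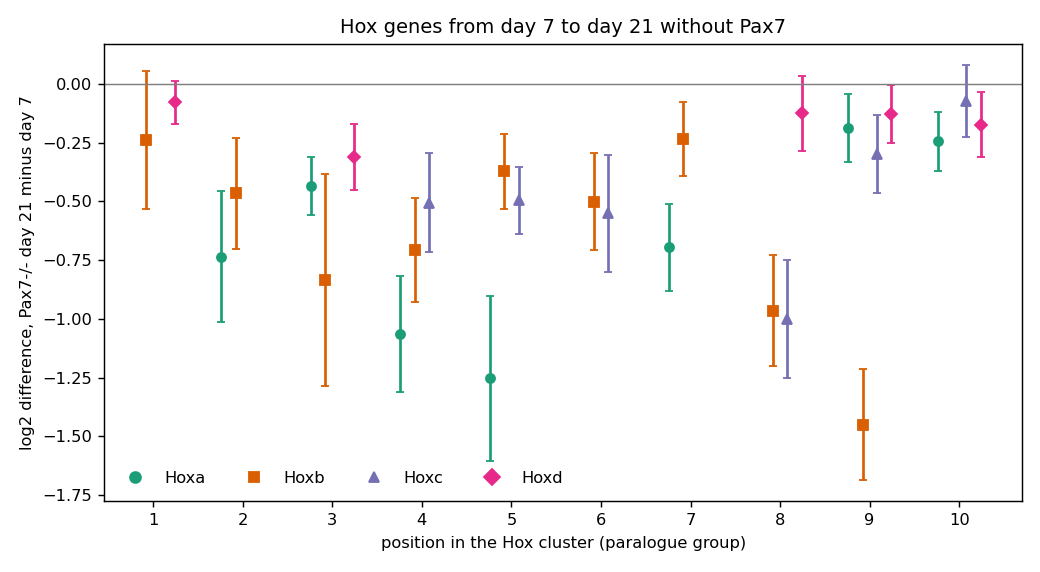
Log2 difference between Pax7-/- day 21 and day 7, with its SE, for 27 Hox genes by paralogue group along the horizontal axis, with a colour and symbol for each cluster. All points lie below zero, from -0.07 to -1.45 (Hoxb9).

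Cubn and Nid2, genes of the outer layers of the embryoid body, fell, and a pair of stomach genes rose. Visceral endoderm takes up maternal nutrients through the cubilin receptor and secretes serum proteins, and parietal endoderm lays down basement membrane. Cubn, cubilin, read 8.04 and 8.18 (narrow) and 10.02 (wide) at day 7 and 5.24 (narrow), 8.10 and 6.27 (wide) at day 21. It fell by 2.87 ± 0.43 on the log2 scale (7.32-fold; adjusted p = 0.00498), with -2.87 and -2.83 within the narrow and wide sets and -2.83 in Pax7+/+ cells. It was the called gene among 24 of visceral endoderm and liver, whose median was -0.60, with 12 at an unadjusted p under 0.05, all lower. In Pax7+/+ cells the median of these 24 was 0.20, with 2 called lower and 0 higher, and no change of the step was called among them. The 17 genes of serum inhibitors and coagulation had none called in limma (3 at an unadjusted p under 0.05), with a median of -0.11, and 0.19 in Pax7+/+ cells. Nid2, a nidogen that links laminin to collagen IV, went from 7.55, 7.71 and 9.10 to 6.35, 8.08 and 7.77 and fell by 1.26 ± 0.12 on the log2 scale (adjusted p = 0.000113). Hspg2, perlecan, fell by 0.47 ± 0.10, and these were the 2 called of 17 parietal endoderm and basement membrane genes (median -0.22). In Pax7+/+ cells 4 of these 17 rose and 3 fell, with a median of 0.51, and the change of the step was called for 3, all downward. Cubn and Nid2 were called with any single Pax7-/- array left out and Hspg2 in none of these 6 fits (adjusted p up to 0.209). Cldn6, a claudin of embryonic epithelium, fell by 1.08 ± 0.20 and lost its call without day 7 replicate 1 or 2 or day 21 replicate 3 (up to 0.129).

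The largest rises of the comparison were those of the gastrokines, secreted proteins of the stomach lining. Gkn2 read 6.05 and 5.97 (narrow) and 7.31 (wide) at day 7 and 10.27 (narrow), 10.996 and 11.45 (wide) at day 21. Gkn1 read 5.90, 5.74 and 5.15 at day 7 and 8.72, 9.37 and 10.05 at day 21. The rises were 4.42 ± 0.41 (21.5-fold; adjusted p = 0.000113) and 3.90 ± 0.42 (14.9-fold; adjusted p = 0.000333), beside 5.55 and 4.18 in Pax7+/+ cells. They were the 2 called of 21 genes of definitive endoderm, gut and stomach, whose median was -0.08, and both were called with any single Pax7-/- array left out.

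Thbs1, thrombospondin, a matricellular protein that modulates adhesion and TGF-beta, rose from 6.23, 5.98 and 7.84 to 8.33, 10.10 and 10.13 (2.37 ± 0.18; 5.15-fold; adjusted p = 1.96e-05). The rise was 2.23 and 2.28 in the narrow and wide sets, 2.38 in Pax7+/+ cells, and was called with any single Pax7-/- array left out. It was the called gene among 15 matricellular genes, of which 5 rose in Pax7+/+ cells. Of 16 immediate early genes 2 rose, Egr1 (1.19 ± 0.13; adjusted p = 0.000333) and Klf6 (0.78 ± 0.15), and 14 rose in Pax7+/+ cells. Egr1 read 6.44, 6.14 and 7.80 at day 7 and 7.50, 8.94 and 8.87 at day 21. Its rise in Pax7+/+ cells was 2.25, and the change of the step was -1.06 ± 0.19 (adjusted p = 0.0152), which lost its call without Pax7-/- day 7 replicate 2, day 21 replicate 1 or Pax7+/+ day 7 replicate 1 (up to 0.0643). Egr1 kept its rise with any single Pax7-/- array left out, and Klf6 lost it without day 7 replicate 1 or 3 or day 21 replicate 1 or 3 (adjusted p up to 0.0916). Btg2, an antiproliferative early gene, rose by 0.96 ± 0.17 and was lost without day 7 replicate 2 or day 21 replicate 3 (up to 0.0645).

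Receptor tyrosine kinase signalling gave mixed calls. Among 16 genes of FGF and ERK signalling the receptor gene Fgfr1 (0.77 ± 0.13) and the phosphatase gene Dusp4 (0.60 ± 0.10) rose, while Dusp6, a feedback phosphatase of ERK, fell by 0.66 ± 0.14. Dusp9, another ERK phosphatase outside the list, went from 7.10, 7.54 and 8.60 to 6.01, 7.63 and 7.52 and fell by 1.17 ± 0.15 (adjusted p = 0.00123). Smad7, the inhibitory SMAD, fell by 0.80 ± 0.17. Dusp9 was called with any single Pax7-/- array left out. Fgfr1 was lost without day 21 replicate 3 (adjusted p = 0.0536), Dusp4 without that array or day 7 replicate 3 (up to 0.0548), and Dusp6 and Smad7 in 5 of the 6 fits (up to 0.172 and 0.176).

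Some genes of the secretory pathway fell, in lists written after the values were seen. Of 24 genes in ER translocation and N-glycosylation 4 fell: Ddost (-0.85 ± 0.17) and Stt3a (-0.61 ± 0.13), subunits of the oligosaccharyltransferase, Srpr (-0.76 ± 0.16), the receptor for signal recognition particles, and Ssr2 (-0.69 ± 0.13), a translocon subunit. Of 26 genes in ER to Golgi vesicles 4 fell: Kdelr3 (-0.94), which returns escaped proteins to the reticulum, Arf4 (-0.61), Uso1 (-0.60) and the coat protein gene Sec23a (-0.58). The medians of the lists were -0.24 and -0.30, and without the array set in the fit they were 0.17 and 0.34. With single Pax7-/- arrays left out, at most 2 and 1 of the members were called. Srpr, Kdelr3, Sec23a and Arf4 were called in none of those 6 fits (adjusted p up to 0.164), Ddost, Stt3a and Uso1 in 1 (up to 0.172), and Ssr2 in 3, being lost without day 7 replicate 1 or 3 or day 21 replicate 3 (up to 0.0728).

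Among the largest falls outside these lists was that of Tshz3, a teashirt zinc-finger factor, which went from 6.54, 6.17 and 8.11 to 4.93, 6.59 and 6.08 (-1.57 ± 0.21; adjusted p = 0.00194). Npl, a lyase of sialic acid, fell by 1.57 ± 0.27, and Mreg, melanoregulin, which acts in organelle transport, by 1.42 ± 0.15. F3, tissue factor, the cell-surface trigger of coagulation, read 10.02, 9.77 and 10.68 at day 7 and 8.07, 10.08 and 9.88 at day 21 and fell by 1.29 ± 0.23. Car7, a carbonic anhydrase, fell by 1.29 ± 0.27, the zinc-finger gene Zfp984 by 1.26 ± 0.25 and Lgmn, a lysosomal protease, by 1.24 ± 0.22. Txnip, which restrains glucose uptake, fell by 1.15 ± 0.18. Tshz3, Mreg and Txnip were called with any single Pax7-/- array left out. Npl was lost without day 7 replicate 2 or day 21 replicate 3 (adjusted p up to 0.0868), F3 without day 7 replicate 1 or 3 or day 21 replicate 3 (up to 0.0721), and Lgmn without day 7 replicate 1 or 2 or day 21 replicate 3 (up to 0.0793). Car7 and Zfp984 were lost without day 7 replicate 1 or 2 or day 21 replicate 2 or 3 (up to 0.226 and 0.189).

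Muscle genes gave no call in limma in this comparison. At an unadjusted p under 0.05 there were 8 of 20 cardiac, 7 of 24 sarcomere, 3 of 14 smooth muscle genes and 4 of 17 myogenic regulators and satellite cell genes. Over all genes 2685 of 22180 had such a p, against which these and the counts below are to be read. Myl7, an atrial myosin light chain, read 4.50, 4.34 and 4.58 at day 7 and 5.18 (narrow), 8.47 and 7.45 (wide) at day 21, and Actc1, cardiac actin, read 4.97, 4.58 and 4.61 and then 5.76, 7.85 and 7.17. Their differences were 2.17 ± 0.66 (adjusted p = 0.157) and 2.15 ± 0.56 (adjusted p = 0.0947). With single Pax7-/- arrays left out, up to 5 cardiac and up to 4 sarcomere genes were called. Myod1, the myogenic regulator, differed by 0.37 ± 0.14 (adjusted p = 0.283). Lists of blood, endothelium, macrophages, neural crest and fibrillar collagens gave no call either, with 1 of 11 blood, 3 of 15 endothelial, 0 of 14 macrophage and 2 of 14 neural crest genes at an unadjusted p under 0.05, and 1 of 21 fibrillar collagen and proteoglycan genes. The same held for Wnt targets and inhibitors (4 of 17), chemokine and acute phase genes (5 of 16), interferon and antigen presentation genes (1 of 18), cartilage and bone genes (3 of 14), ribosomal protein genes (0 of 13) and differentiation microRNAs (0 of 25). Other lineage lists held 1 rise each, all described above: Lfng among 18 genes of paraxial mesoderm and somites, Emx2 among 9 of kidney and intermediate mesoderm and Cdh2 among 18 mesenchymal regulators.

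The step differed between genotypes for 202 genes, 160 of them more upward in Pax7-/- cells and 42 more downward (0.189%). With single arrays left out the count ran from 64, without Pax7-/- day 7 replicate 1, to 307, without Pax7+/+ day 21 replicate 2. Under quantile normalisation the split was 168 to 95 and with arrays scaled to a common SD 87 to 49. Without the array set in the fit limma called 0, with 399 at an unadjusted p under 0.05. From day 7 to day 21 wide arrays became more frequent in Pax7-/- cells and less frequent in Pax7+/+ cells. A set effect left after the fit would therefore add up in this contrast, which was not tested. Among the genes called in Pax7-/- cells, 34 of 185 had a changed step, against 0.911% of all genes. The Pax7-/- difference enters both calls, so a higher share is built in and this count tests nothing. Nanog, a core naive factor, fell by 3.52 on the log2 scale in Pax7+/+ cells, from 8.76 (narrow), 9.74 and 9.84 (wide) to 5.24, 5.66 (narrow) and 5.71 (wide). In Pax7-/- cells it read 6.67, 7.72 and 9.04 at day 7 and 5.86, 7.97 and 8.03 at day 21, a difference of -0.91 (adjusted p = 0.256), and the change of the step was 2.62 ± 0.48 (adjusted p = 0.0192). The call was lost without Pax7+/+ day 7 replicate 1 (adjusted p = 0.0514). On the narrow arrays of day 7 both Pax7-/- values lay below the Pax7+/+ value. On the wide arrays of day 7 the Pax7-/- value lay below both Pax7+/+ values.

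Part of the proliferation genes fell in Pax7+/+ cells, and none of those listed was called in Pax7-/- cells. For DNA replication, in Pax7-/- cells none of 22 was called in limma (6 at an unadjusted p under 0.05; median 0.21), in Pax7+/+ cells 9 fell (median -0.47), and the change of the step was called for 8, all upward (3 to 9 with single arrays left out). Rrm2, a subunit of ribonucleotide reductase, read 6.91, 6.85 and 8.17 at day 7 and 7.50, 8.49 and 8.59 at day 21 in Pax7-/- cells. Its change of the step was 1.601 ± 0.20 (adjusted p = 0.00391), called with each of the 12 arrays left out. Of 19 mitosis genes 15 fell in Pax7+/+ cells and none was called in Pax7-/- cells (3 at an unadjusted p under 0.05), with 4 changes of the step (0 to 4 in the mitosis list with single arrays left out). Of 15 nucleolar genes 11 fell in Pax7+/+ cells and none was called in Pax7-/- cells (2 at an unadjusted p under 0.05), with 3 changes of the step (0 to 4 in the nucleolar ribosome biogenesis list with single arrays left out).

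Among the genes named for the largest downward changes of the step was Dcn. It was the called member of 21 fibrillar collagen and proteoglycan genes. Called downward were 3 of 17 parietal endoderm and basement membrane genes, 2 of 16 immediate early genes and 2 of 15 matricellular genes, against 0.189% of all genes. Of 15 endothelial genes 0 were called downward (0 at an unadjusted p under 0.05). Dcn, the proteoglycan decorin, rose by 2.84 in Pax7+/+ cells and differed by 0.57 ± 0.31 in Pax7-/- cells (adjusted p = 0.496), where it read 4.67, 4.86 and 6.05 at day 7 and 4.83, 7.76 and 6.51 at day 21. Its change of the step was -2.27 ± 0.44 (adjusted p = 0.025). The matricellular gene Ccn1, Epas1, which encodes a hypoxia-inducible factor, and Slco2a1, a prostaglandin transporter, rose by 1.89, 1.36 and 1.82 in Pax7+/+ cells. Their differences in Pax7-/- cells were -0.04, -0.43 and 0.06, and their changes of the step -1.93 ± 0.29, -1.79 ± 0.24 and -1.76 ± 0.23. For F3 the change was -1.9998 ± 0.34. F3, Ccn1, Epas1 and Slco2a1 kept the call of the change with each of the 12 arrays left out. Dcn lost it without any of 8 of them (adjusted p up to 0.0903).

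**Figure D5:**
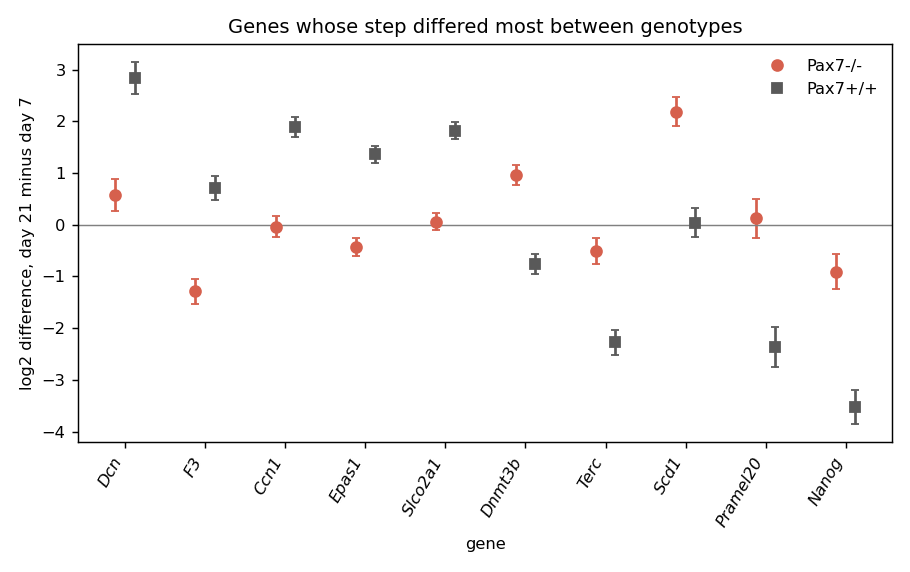
Log2 difference between day 21 and day 7, with its SE, for 10 genes whose step differed between Pax7-/- (circles) and Pax7+/+ cells (squares), 3 arrays per group. Dcn, F3, Ccn1, Epas1 and Slco2a1 have the higher difference in Pax7+/+ cells, and Dnmt3b, Terc, Scd1, Pramel20 and Nanog in Pax7-/- cells.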

How the data were processed

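The authors deposited log2 intensities per probe set. The submitters' processing notes name RMA and Partek, with no version or order, and RNA was extracted with a column kit and labelled with biotin, per the labels' protocols. The genome build of the array annotation is not given in the sources used here. Of 41345 probe sets, 23521 had 1 gene symbol, and each of 22180 genes was represented by its brightest probe set on average over the 18 arrays (1082 genes had several), of which 21994 matched the reference table. No filter on low signal was applied.

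Groups came from the sample titles. Arrays with an SD above 1.6 over all probe sets were called wide, the others narrow. limma 3.58.1 in R 4.3.3 fitted 6 group means and the array set to all 18 arrays (11 residual degrees of freedom), followed by eBayes and Benjamini-Hochberg adjustment over all genes, with 0.05 as threshold. The change of the step is the Pax7-/- difference minus the Pax7+/+ difference. Errors are the SE of that fit. For arrays their number limits the precision: with groups of 3, the smallest p of an exact permutation test is 0.1. The code was tested on simulated data. The fit used no pairing by replicate number. Deviations of same-numbered Pax7-/- arrays of day 7 and day 21 correlated between -0.069 and 0.0864, and those of different numbers between -0.0979 and 0.107. With groups of 3 these values cannot exclude a pairing, and other groups were not checked.

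The members and 54 gene lists were chosen with earlier results of these data known, and 9 lists were written after these values were seen, and no list was tested as a set. Genes were named by rule: the 15 largest rises and 15 largest falls among called genes that changed at least 2-fold without overlap within a set. In each of the 54 lists up to 4 called members were named, or else the 2 with the lowest p. In the 9 later lists every called member was named, and these count among the 79 named genes called. Added to these were 5 changes of the step each way, Pax7 and, after the values were seen, the Mir302 cluster. Predicted genes and pseudogenes were passed over, and Acaca, Elovl6 and Cyp51 are named outside the rule. Alternatives were other scalings, filters, fits and arrays left out.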

Additional observations from a re-analysis of the deposited data

Results flagged for a closer look

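The following genes had a step from day 7 to day 21 that differed between Pax7-/- and Pax7+/+ cells by the test of the difference itself (limma, adjusted p under 0.05). Each value is the Pax7-/- step minus the Pax7+/+ step in log2. In lipid synthesis the values were 2.15 for Scd1, 1.57 for Fasn, 1.32 for Hmgcs1, 1.26 for Fads2, 1.15 for Fdps, 1.10 for Sqle, 1.04 for Fdft1, 0.97 for Acly, 0.93 for Srebf2, 0.79 for Acsl4 and 0.75 for Pmvk. Among pluripotency, neural and growth factor genes they were 2.62 for Nanog, 1.72 for Dnmt3b, 1.42 for Lin28a, 1.19 for Gli3, 1.17 for Fgfr1 and 0.68 for Dusp4. For Pramel20 and Terc, named by the size of this change, the values were 2.49 and 1.77. In replication, mitosis and ribosome biogenesis they were 1.601 for Rrm2, 1.19 for Pcna, 1.15 for Aurkb and 1.04 for Bop1. Below zero were Dcn (-2.27), F3 (-1.9998), Ccn1 (-1.93), Epas1 (-1.79), Slco2a1 (-1.76), Egr1 (-1.06) and Nid2 (-0.77). Of these 30 genes, F3, Ccn1, Epas1, Slco2a1, Dnmt3b, Lin28a, Rrm2, Fasn and Fgfr1 were called with each of the 12 arrays of both steps left out, Nid2 and Dusp4 in none of those fits, and Pramel20, Fads2 and Fdps in 1.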

How the results depend on the processing

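The count of 185 genes depended on the array set: it was 3 without the set in the fit, 90 on the narrow and 815 on the wide arrays alone. It was 309 after quantile normalisation, 770 with array weights, 90 with the 6 arrays of the comparison alone and 50 at an adjusted p under 0.01. Leaving out 1 Pax7-/- array gave 46 to 548, and leaving out 1 Pax7+/+ array, an alternative chosen after seeing the data, 140 to 313. At 2-fold the count of 63 became 3 without the set, 442 on wide arrays, 103 after quantile normalisation, 189 with array weights and 33 at 0.01, and 30 to 256 and 56 to 105 with arrays left out. The Pax7+/+ count of 1297 became 5, 496 and 3161 without the set and on narrow and wide arrays, 695 with the arrays of the comparison alone and 547 at 0.01, and 673 to 1202 with single Pax7+/+ arrays left out; after quantile normalisation it split into 517 higher and 969 lower. The 202 changes of the step became 0 without the set, 337 on wide arrays and 34 at 0.01, and 64 to 307 with arrays left out. With the replicate block beside the array set the counts were 105, 1000 and 73. The labels give same-numbered arrays no link beyond the number. Of 79 named genes called, 54 kept their call under the block, 79 under median centring, 77 under quantile normalisation, 66 after scaling to a common SD, 57 on wide and 37 on narrow arrays, 42 with the arrays of the comparison alone, 31 at 0.01 and 3 without the array set, where 4 turned. With single Pax7-/- arrays left out 30 (without day 21 replicate 3) to 66 did.

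Without the array set these differences turned: Fbxo15 0.17, Kif11 0.50, Rpl19 0.0496, Wdr43 0.43, H1f2 0.0555, Rbfox3 -0.0441, Lama5 0.0327, Myod1 -0.15, Runx1 0.18, Cd68 0.32, Dusp6 0.0786, Sec23a 0.35, Uso1 0.23, Ccn1 0.60, Epas1 0.16 and Pax7 -0.0571, and the change of the step of Nid2, 0.32. On narrow arrays alone Ogn was -0.0731, Mylk -0.32, Myh3 -0.0651, Actn2 -0.13, Mstn -0.0498, Slco2a1 -0.0486 and Pramel20 -0.0371. Ccn1 was 0.16 on wide arrays, 0.11 after quantile normalisation, 0.0122 with the arrays of the comparison alone, and with single Pax7-/- arrays left out ran from -0.18 to 0.16. Under the same removals Slco2a1 ran from -0.0654 to 0.17 and Pramel20 from -0.00581 to 0.19. The cause was not tested. Low probe sets limit what can be seen, since values near the array median carry background.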

Other observations

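Genes of the germ line and of the early cleavage embryo, listed together and outside the report, had no call in limma. Of these 15, 8 had an unadjusted p under 0.05, all lower, and the median was -0.61. Mael, a germ-line factor that silences transposons, read 4.08, 4.26 and 6.51 at day 7, narrow arrays first, and 3.73, 3.60 and 3.61 at day 21, a difference of -1.77 ± 0.56 (adjusted p = 0.17). Ddx4, the germ-cell helicase Vasa, differed by -1.45 ± 0.50 (adjusted p = 0.213). In a list of 20 genes of purine, pyrimidine and one-carbon synthesis, written after the values were seen, limma called 0 in Pax7-/- cells (6 at an unadjusted p under 0.05) and 12 lower in Pax7+/+ cells, and the step differed between genotypes for 7, all upward in Pax7-/- cells.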
